A study of Mus musculus with 2 samples.

Results

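The genes described here are the serine/arginine-rich (SR) and heterogeneous nuclear ribonucleoprotein (hnRNP) splicing factors of the mouse liver. Members were taken from the deposited transcript table by gene symbol. The symbols were those beginning with *Srsf* and a digit, those beginning with *Hnrnp*, *Tra2a* and *Tra2b*, and *Rbm3*, *Rbm5*, *Rbm25* and *Rbm39*. The rule found 39 of 45777 symbols, made up of 13 SR and *Tra2* genes, 22 *Hnrnp* genes and 4 *Rbm* genes. They carried 364 of the 129299 listed transcripts. The rule used no measured value.

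Sequencing was done on poly-A RNA of liver tissue from HFD-fed C57BL/6 N mice. The diet began at an age of 7 weeks and lasted 18 weeks, and the mice received AAV-GFP or AAV-*Wee1-AS* in week 13. AAV-GFP was the control, and AAV-*Wee1-AS* carried the long noncoding RNA *Wee1-AS*, which was not analysed here itself. The vector was an AAV9 driven by the CMV promoter, which is not specific to hepatocytes, and all mice of both groups received the diet. The table holds 1 library for each group, while the series design text speaks of 4 liver samples. No spread between mice could be estimated, so no p-value is given, and every interval below covers counting error only.

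SR proteins bind exons through RNA recognition motifs and recruit the spliceosome through their serine/arginine-rich domains, and hnRNP proteins coat nascent RNA and often oppose them. Many genes of both families regulate their own dose. Their pre-mRNA can be spliced to include an exon with an early stop codon, or to splice within the last exon, and the transcript is then a target of nonsense-mediated decay. RefSeq lists many such transcripts as noncoding (NR for curated and XR for predicted records), beside the coding transcripts (NM for curated and XM for predicted records).

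*Srsf3* and *Srsf7* show how a coding and a noncoding transcript of one gene differ. The 4 sequences below were read from GENCODE transcripts of the build GRCm38, the same assembly as mm10, matched to the RefSeq records. The sequences of a pair begin with the same 30 coding bases, in lower case, and the capitals mark the bases that follow the splice junction. In the noncoding transcripts the capitals end with the in-frame stop codon TGA.
Srsf3 coding NM_013663: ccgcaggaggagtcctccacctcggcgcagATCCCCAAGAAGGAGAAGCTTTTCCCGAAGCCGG
Srsf3 noncoding NR_036613: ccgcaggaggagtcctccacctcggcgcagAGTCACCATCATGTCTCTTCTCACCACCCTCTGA
Srsf7 coding NM_146083: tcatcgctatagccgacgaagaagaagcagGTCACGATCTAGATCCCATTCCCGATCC
Srsf7 noncoding NR_036615: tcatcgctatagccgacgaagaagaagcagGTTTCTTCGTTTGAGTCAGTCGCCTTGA

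The extra *Srsf3* exon lay at chr17:29039454-29039909 on the plus strand and was 456 bases long, which was also the difference between the deposited lengths of NR_036613 and NM_013663. The reading frame met its stop codon at base 32 of that exon, after 124 codons instead of 164. The extra *Srsf7* exon lay at chr17:80204622-80205081 on the minus strand and was 460 bases long. This was the difference between the deposited lengths of NR_036615 and the coding transcript NM_001195485. For NM_146083, the coding transcript shown above, the difference was 451 bases. The stop codon began at base 26 of that exon, after 137 codons instead of 238. GENCODE lists both noncoding transcripts as targets of nonsense-mediated decay. The values of these transcripts are given further on.

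The libraries held 55466182 estimated counts (AAV-GFP) and 48079335 (AAV-*Wee1-AS*). The 6 hepatocyte markers summed to 71582 and 88765 CPM (scaled counts over the library total), of which *Alb* had 2542754 and 3065513 counts, so the tissue label held in both. Of the 6, 3 were lower with AAV-*Wee1-AS*, 1 (*Cps1*) was over 2-fold higher, and their median log2 ratio was -0.12. Of 6 stellate cell markers 2 were over 2-fold lower and 2 over 2-fold higher with AAV-*Wee1-AS*, among them *Col1a1* (3620 and 603 counts) and *Rgs5* (540 and 1351 counts). Of 6 Kupffer cell markers 2 were over 2-fold higher and 0 lower, with sums of 519.7 and 389.7 CPM. Of 5 lymphoid markers 2 were over 2-fold higher and 1 lower, with sums of 5.47 and 8.23 CPM. The part of these cell types in the values of the splicing factors was not tested, and in bulk RNA fewer cells of a type and less RNA per cell cannot be told apart.

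The splicing factors took a larger share of the counts with AAV-*Wee1-AS*. Their counts summed to 58533 with AAV-GFP, 0.106% of the library (exact binomial 95% interval 0.105 to 0.106), and to 84037 with AAV-*Wee1-AS*, 0.175% (0.174 to 0.176). Summed TPM, a level per length scaled to an equal total in each library, was 658 and 1059. Of the 39 genes, 36 reached 10 counts in at least 1 library. The exceptions were *Srsf12* at 0 in both libraries, and the pseudogenes *Hnrnpa1l2-ps* (3 and 8 counts) and *Hnrnpa1l2-ps2* (2 and 3 counts).

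Of the 36 genes, 18 were over 2-fold higher with AAV-*Wee1-AS* and 0 were over 2-fold lower. Of all 15857 genes kept, 22.5% were over 2-fold higher and 8.43% over 2-fold lower. In either direction, 31.0% of all genes were past 2-fold. The log2 ratios, taken as AAV-*Wee1-AS* over AAV-GFP, had a median of 0.98 for the 36 genes and -0.00 for all genes. They were above 0 in 32 of the 36, against 49.9% of all genes. By family, 4 of 12 SR and *Tra2* genes were over 2-fold higher (median log2 ratio 0.76), 12 of 20 *Hnrnp* genes (1.11) and 2 of 4 *Rbm* genes (1.34). The counting interval lay wholly above 2-fold for 15 genes, wholly above 0 for 31, wholly below 0 for 1 and on both sides of 0 for 4. Over all genes kept the same shares were 16.3%, 39.6%, 37.4% and 23.0%.

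These ratios stood beside a relation of the ratio with base composition over the whole table. Across all 14995 genes with a GENCODE transcript, the Spearman coefficient of the log2 ratio with the GC content of the longest transcript was -0.67. Across the 36 splicing factors it was -0.53, and -0.45 without *Hnrnpa0* and *Hnrnpl*, the genes farthest from the median GC content. Genes are not independent replicates, and all points came from the same 2 libraries. The splicing factors had a median GC content of 42.96%, against 49.8% for all genes. After the trends of the ratio along GC content and transcript length had been taken out, 1 of 36 genes (*Hnrnpdl*) was over 2-fold higher and 0 were over 2-fold lower, against 7.38% and 8.53% of all genes. The median log2 ratio was then 0.28, with the SR and *Tra2* genes at -0.28 and the *Hnrnp* genes at 0.42. The SR and *Tra2* median turned to 0.12 when GC content and length came from the longest protein-coding transcript of a gene, an alternative added after seeing the data. Values after removal of these trends are given below as trend-removed log2 ratios.

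**Figure D1:**
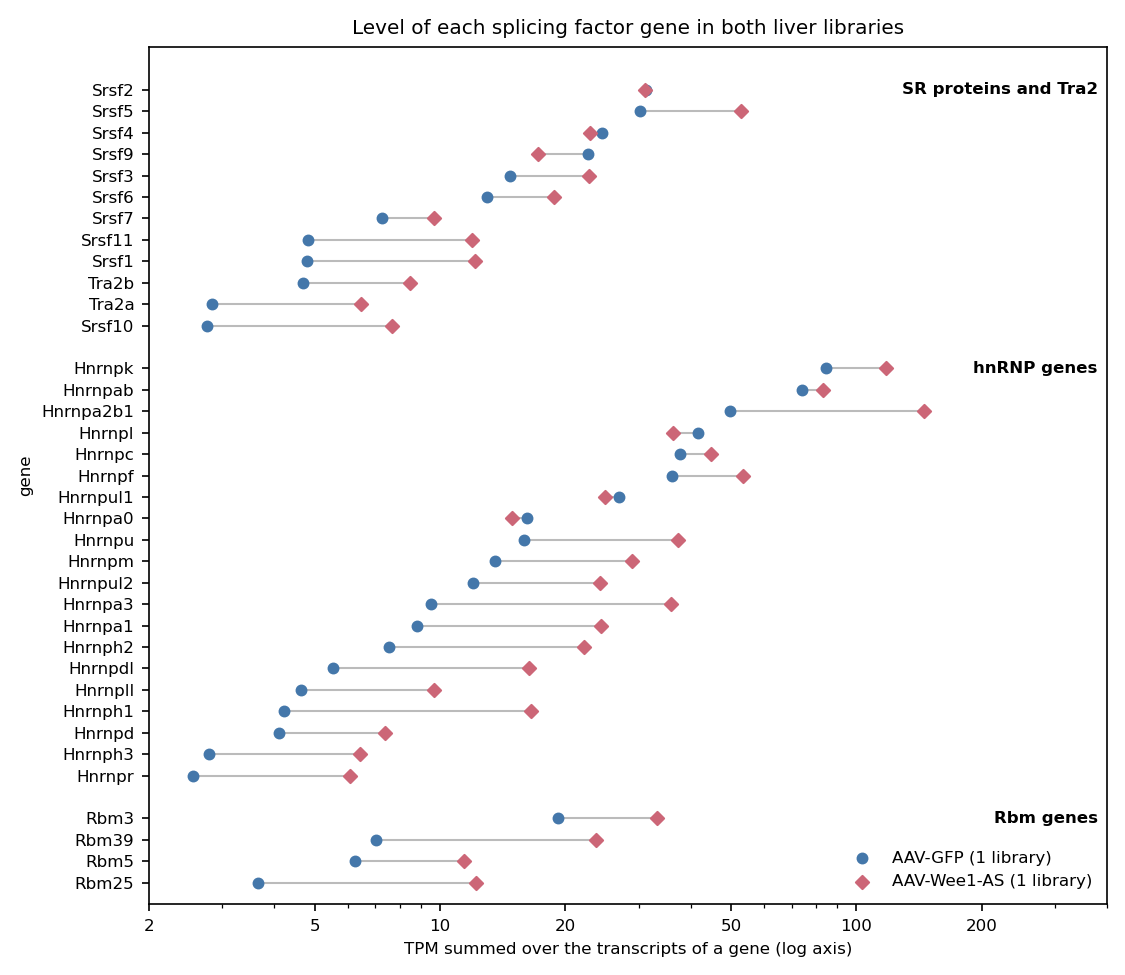
TPM summed over the transcripts of each of the 36 genes (x axis, log scale) in the AAV-GFP library (circles) and the AAV-Wee1-AS library (diamonds), 1 library per group, with genes ordered by the AAV-GFP level within each family. Hnrnpk had the highest level with AAV-GFP (84.7 TPM) and Hnrnpa2b1 with AAV-Wee1-AS (145 TPM).

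Among the SR genes, *Srsf1*, the founding member of the family and a regulator of constitutive and alternative 5' splice sites, had 852 counts with AAV-GFP and 1821 with AAV-*Wee1-AS*. Its log2 ratio was 1.37 (95% interval 1.26 to 1.49), a 2.59-fold difference, and -0.17 with trends removed. *Srsf10*, an SR protein that acts as a splicing repressor when dephosphorylated, had 286 and 674 counts, a log2 ratio of 1.51 (1.31 to 1.72) and a trend-removed ratio of 0.26. *Srsf11*, an SR-related protein also known as p54, had 494 and 1069 counts, a log2 ratio of 1.39 (1.24 to 1.55) and a trend-removed ratio of 0.73. These genes and *Tra2a* were the members of the SR and *Tra2* family past 2-fold.

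*Tra2a* and *Tra2b* encode paralogous activators that bind purine-rich exonic enhancers. *Tra2a* had 172 and 373 counts (log2 ratio 1.38, 1.13 to 1.66), and *Tra2b* had 515 and 807 counts (0.92, 0.76 to 1.09). Their trend-removed ratios had opposite signs, 0.60 for *Tra2a* and -0.47 for *Tra2b*.

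*Srsf3*, the smallest SR protein and a regulator of hepatocyte genes, had 1277 and 1693 counts (log2 ratio 0.68, 0.58 to 0.79). *Srsf7*, the SR protein with a zinc knuckle, had 553 and 638 counts (0.48, 0.32 to 0.65). *Srsf5* had 1576 and 2326 counts (0.84, 0.75 to 0.93) and *Srsf6* 1515 and 1861 (0.57, 0.48 to 0.67). All 4 lay between no difference and 2-fold, and all 4 were negative with trends removed, at -0.65 for *Srsf3*, -0.60 for *Srsf7*, -0.46 for *Srsf6* and -0.45 for *Srsf5*, although *Srsf5* turned to 0.13 where protein-coding transcripts gave GC content and length.

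*Srsf2*, also known as SC35 and a marker of nuclear speckles, was nearly level with 2166 and 2029 counts (log2 ratio 0.18, 0.10 to 0.27), and was at 0.33 with trends removed. *Srsf4*, an SR protein with a long arginine/serine domain, had 1940 and 1613 counts (0.01, -0.08 to 0.11) and was at 0.41 with trends removed. *Srsf9*, a small SR protein with a short arginine/serine domain, had 903 and 573 counts, a log2 ratio of -0.38 (-0.53 to -0.23) and -0.39 with trends removed, which turned to 0.34 with protein-coding transcripts. *Srsf9* was the 1 gene of the 36 whose interval lay wholly below 0.

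**Figure D2:**
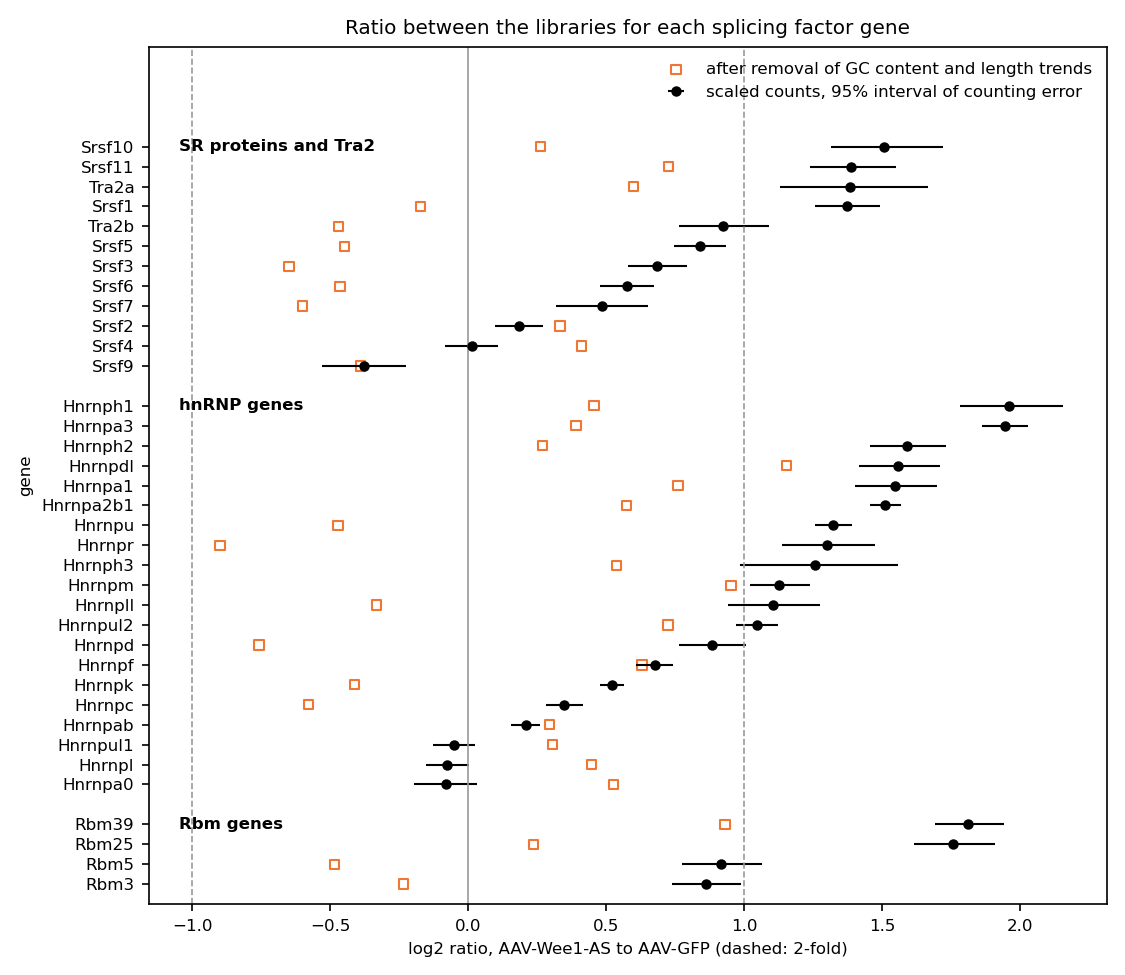
Log2 ratio, AAV-Wee1-AS over AAV-GFP, for each of the 36 genes (filled circles, bars show the 95% interval of counting error) and the same after removal of trends with GC content and transcript length (open squares), from 1 library per group. Before removal 18 genes lay past 2-fold (dashed line), and after it 1 did.

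The *Hnrnp* genes showed the widest range. *Hnrnpa1* and *Hnrnpa2b1*, which bind exonic and intronic silencers and often oppose SR proteins, had 516 and 1245 counts (log2 ratio 1.54, 1.40 to 1.70) and 3833 and 9013 counts (1.51, 1.46 to 1.57). Their paralog *Hnrnpa3* had 1581 and 5018 counts (1.94, 1.86 to 2.03), a 3.84-fold difference. *Hnrnpa0*, the intronless member of the same subfamily, had 1428 and 1113 counts (-0.08, -0.20 to 0.03). With trends removed *Hnrnpa1* was at 0.76, *Hnrnpa2b1* at 0.57, *Hnrnpa3* at 0.39 and *Hnrnpa0* at 0.52. *Hnrnpa1* has near-identical processed copies in the genome, and how reads shared with such copies were assigned is not given in the sources used here.

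The proteins of *Hnrnpd*, *Hnrnpdl* and *Hnrnpab* are related RNA-binding proteins, and that of *Hnrnpd* (AUF1) binds AU-rich elements of unstable mRNA. *Hnrnpdl* had 537 and 1306 counts (log2 ratio 1.56, 1.41 to 1.71), *Hnrnpd* 921 and 1402 (0.88, 0.76 to 1.01) and *Hnrnpab* 6033 and 5747 (0.21, 0.16 to 0.26). With trends removed *Hnrnpdl* was at 1.15, the highest of the 36 genes (with protein-coding transcripts *Hnrnph1* was the highest), *Hnrnpd* at -0.76 and *Hnrnpab* at 0.29.

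*Hnrnpf*, *Hnrnph1*, *Hnrnph2* and *Hnrnph3* encode the proteins that bind runs of G near splice sites. *Hnrnph1* had 308 and 993 counts and the highest log2 ratio of the 36 genes (1.96, 1.78 to 2.16), a 3.89-fold difference. *Hnrnph2* had 610 and 1516 counts (1.59, 1.45 to 1.73), *Hnrnph3* 154 and 306 (1.26, 0.98 to 1.56) and *Hnrnpf* 3144 and 4142 (0.68, 0.61 to 0.74). The trend-removed ratios were 0.45 for *Hnrnph1*, 0.27 for *Hnrnph2*, 0.54 for *Hnrnph3* and 0.63 for *Hnrnpf*. With protein-coding transcripts *Hnrnph1* was again the highest of the subfamily, at 1.28, with the others at 0.11, 0.42 and 0.55 in the same order.

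*Hnrnpc*, which binds U tracts and keeps the splicing factor U2AF from cryptic exons, had 3403 and 3573 counts (log2 ratio 0.35, 0.28 to 0.42). *Hnrnpk*, which binds C-rich RNA, had the highest AAV-GFP level per length of the 36 genes, with 84.7 and 118 TPM, and 7827 and 9251 counts (0.52, 0.47 to 0.56). Both were below 0 with trends removed, *Hnrnpc* at -0.58 and *Hnrnpk* at -0.41. *Hnrnpl* and *Hnrnpll* encode paralogs that bind CA repeats. *Hnrnpl* had 3011 and 2356 counts (-0.08, -0.15 to 0.00) and *Hnrnpll* 467 and 829 (1.10, 0.94 to 1.27), whereas with trends removed *Hnrnpl* was the higher (0.45 and -0.33, or 0.39 and 0.32 with protein-coding transcripts).

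*Hnrnpu*, the scaffold attachment factor that binds RNA and chromatin, had 2757 and 5685 counts (log2 ratio 1.32, 1.26 to 1.39). Its relatives *Hnrnpul1* and *Hnrnpul2* had 3239 and 2575 counts (-0.05, -0.13 to 0.02) and 2267 and 3861 counts (1.05, 0.97 to 1.12). With trends removed *Hnrnpu* was at -0.47 and the relatives at 0.31 and 0.72. *Hnrnpm*, which binds GU-rich RNA, had 1098 and 1980 counts (1.13, 1.02 to 1.24) and a trend-removed ratio of 0.95. *Hnrnpr*, the relative of the mRNA-binding protein SYNCRIP, had 439 and 894 counts (1.30, 1.14 to 1.47) but -0.90 with trends removed, the lowest of the 36 genes. The GENCODE transcript used for it had 21452 bases, while its longest deposited transcript had 8014. With only the trend along deposited length removed, and GC content left in, its ratio was 0.45.

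Of the *Rbm* genes, *Rbm39*, a U2AF-related coactivator of splicing, had 693 and 2010 counts (log2 ratio 1.81, 1.69 to 1.94) and 0.93 with trends removed. *Rbm25*, which associates with the U1 particle, had 523 and 1462 counts (1.76, 1.62 to 1.91) and 0.24. *Rbm5*, a regulator of apoptotic splice variants, had 637 and 993 counts (0.92, 0.77 to 1.06) and -0.49. *Rbm3*, the cold-inducible RNA-binding protein, had 853 and 1279 counts (0.86, 0.74 to 0.99) and -0.24. All 4 were higher with AAV-*Wee1-AS* before removal of the trends, and 2 of them after it, or 3 with protein-coding transcripts, where *Rbm5* was at 0.45.

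**Figure D3:**
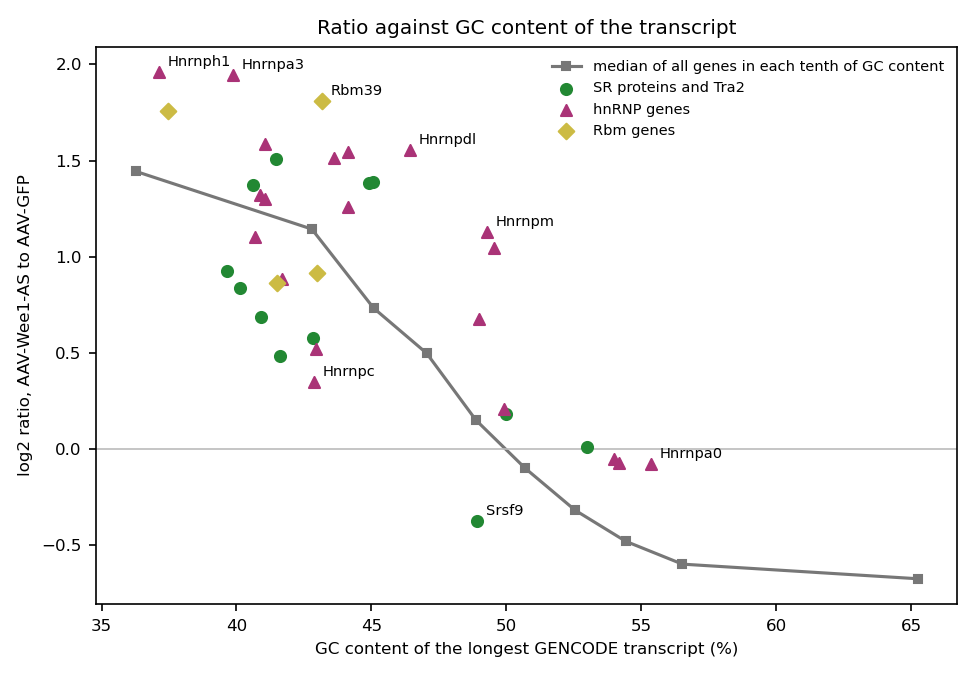
Log2 ratio, AAV-Wee1-AS over AAV-GFP (y axis) against the GC content in percent of the longest GENCODE transcript (x axis) for the 36 genes by family, with the median of all genes in 10 groups of equal size by GC content (grey squares). The 13 splicing factors in the group of lowest GC content had a median of 1.32, against 1.44 for all genes of that group, while the 2 splicing factors of the eighth group had -0.06, against -0.48.

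The members differed in where they lay along GC content. The group of lowest GC content, from 31.0% to 41.6%, held 13 splicing factors with a median log2 ratio of 1.32, against 1.44 for all 1500 genes of that group. In the next group 8 splicing factors had a median of 0.73, against 1.14. In every further group that held splicing factors their median lay above that of all genes. It was 1.39 against 0.73 for the 4 genes of the third group, and 1.56 against 0.50 for the 1 gene of the fourth. In the groups from 49.8% to 57.7% GC it was 0.20 against -0.10, 0.01 against -0.32, -0.06 against -0.48 and -0.08 against -0.60. Among genes of 47.96% to 49.8% GC, whose median was 0.15, there were 4 splicing factors. *Hnrnpm*, *Hnrnpul2* and *Hnrnpf* (49.3%, 49.5% and 49.0% GC) lay above that median and *Srsf9* (48.9% GC, log2 ratio -0.38) below it. The choice of transcript mattered for single genes. With protein-coding transcripts, *Hnrnph1* was at 1.28, *Hnrnpll* at 0.32 and *Srsf9* at 0.34, and 2 of 36 genes were over 2-fold higher and 0 lower, against 5.75% and 7.92% of all genes.

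The next comparison asked whether coding and noncoding transcripts of the same gene differed alike between the libraries. The estimated counts are shared out by the authors' program between overlapping transcripts, and a count of a transcript is not a count of reads unique to it. Of the 39 genes, 10 had curated noncoding transcripts, and all 10 had at least 10 counts of both classes in a library. Those of *Hnrnpdl*, *Hnrnpk*, *Hnrnpll*, *Hnrnpu* and *Rbm5* had no matched GENCODE transcript, and predicted noncoding records were not matched. Whether these are targets of nonsense-mediated decay was not tested. The noncoding class exceeded the coding class by over 2-fold in its ratio in 5 of 10 genes, against 34.0% of the 532 genes of the table that passed the same minimum, of 1110 with both classes. It lagged by over 2-fold in 2 of 10, against 26.1%. *Hnrnpk*, *Srsf7*, *Rbm5* and *Hnrnpll*, all ahead, reached the minimum for the noncoding class only with AAV-*Wee1-AS*, where that class was high. *Hnrnpu*, which lagged, reached it only with AAV-GFP. In these genes the minimum itself favoured a difference, so the counts are descriptive only. The noncoding transcripts of the 10 genes took 4.07% of their curated counts with AAV-GFP and 7.79% with AAV-*Wee1-AS*, and over all such genes these shares were 8.32% and 12.5%.

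The stop codon transcripts of *Srsf3* and *Srsf7* shown above had different values. The *Srsf3* transcript NR_036613 had 169 counts with AAV-GFP and 291 with AAV-*Wee1-AS*, and the coding NM_013663 had 1108 and 1402. The noncoding share was 13.2% (exact binomial 95% interval 11.4 to 15.2) and 17.2% (15.4 to 19.1). The difference between the log2 ratios of the classes was 0.44, under 2-fold. The *Srsf7* transcript NR_036615 was at 0 counts with AAV-GFP and at 94 with AAV-*Wee1-AS*, at least 38-fold higher against a floor of 3 counts per library. The coding transcripts of *Srsf7* had 530 and 528 counts, so the noncoding share was 0% with AAV-GFP (upper bound 0.69) and 15.1% with AAV-*Wee1-AS* (12.4 to 18.2). Of the 2 main coding transcripts of *Srsf7*, NM_146083 was higher with AAV-*Wee1-AS*, with 152 and 255 counts (log2 ratio 1.01, 0.73 to 1.32). NM_001195485 had 248 and 180 counts (-0.18, -0.47 to 0.10), with an interval on both sides of 0.

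*Hnrnpa2b1* (chr6:51460434-51470048) had the largest noncoding counts of the 10 genes once predicted transcripts were included. Its coding transcripts NM_016806 and NM_182650 had 617 and 352 counts with AAV-GFP and 208 and 169 with AAV-*Wee1-AS*, while the curated noncoding transcript NR_104468 had 98 and 207. The gene total was thus over 2-fold higher, with its curated coding transcripts over 2-fold lower (log2 ratio -1.08) and its curated noncoding one higher (1.34). The noncoding share of the curated counts was 9.18% (7.52 to 11.1) and 35.4% (31.6 to 39.5). GENCODE lists the transcript matched to NR_104468 as a target of nonsense-mediated decay.

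The higher gene total of *Hnrnpa2b1* lay in its predicted noncoding transcripts. The 11 XR transcripts summed to 558 counts with AAV-GFP and 6516 with AAV-*Wee1-AS*, and each of the 11 was higher with AAV-*Wee1-AS*. XR_377482, the most abundant with AAV-*Wee1-AS*, had 141 and 1234 counts, and XR_003956228, the most abundant with AAV-GFP, had 180 and 331. XR_868868 had 1 and 934 counts, XR_868866 0 and 816, and XR_868865 0 and 679. With predicted records counted in both classes, the coding transcripts of the gene had 3177 and 2290 counts and the noncoding ones 656 and 6723. The noncoding share was 17.1% (15.9 to 18.3) and 74.6% (73.7 to 75.5).

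**Figure D4:**
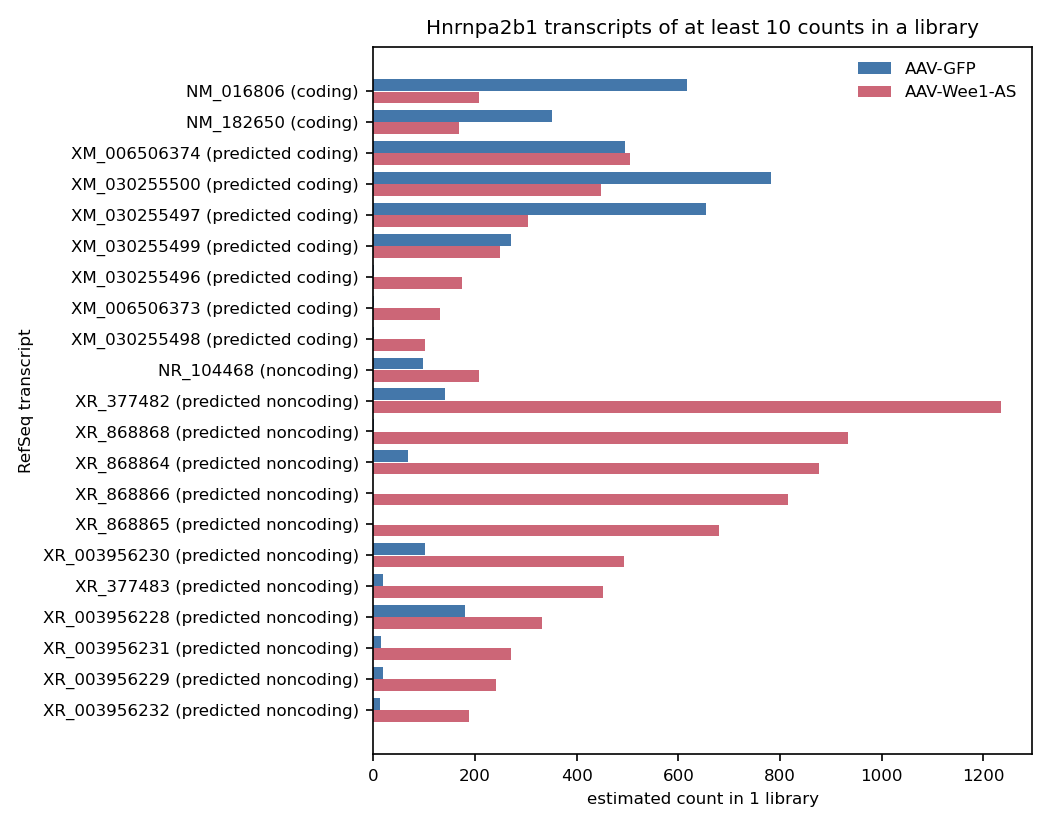
Estimated counts (x axis, linear from 0) of the 21 RefSeq transcripts of Hnrnpa2b1 in the AAV-GFP and AAV-Wee1-AS libraries, 1 library per group, grouped by record type. The coding NM_016806 had 617 and 208 counts, and the predicted noncoding XR_377482 had 141 and 1234.

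Other *Hnrnp* genes and *Rbm5* also had curated noncoding transcripts that were seen almost only with AAV-*Wee1-AS*. The 4 curated noncoding transcripts of *Hnrnpk* (chr13:58391132-58403343) were all at 0 with AAV-GFP and at 131, 86, 71 and 27 counts with AAV-*Wee1-AS*, together at least 127-fold higher, while its coding transcripts had 7525 and 8633 counts. They made up 3.52% (3.15 to 3.92) of the curated *Hnrnpk* counts with AAV-*Wee1-AS*. *Hnrnpll* had 4 and 106 counts of NR_152119 beside 463 and 723 of the coding NM_144802, so its noncoding share was 0.86% (0.23 to 2.18) and 12.8% (10.6 to 15.3). *Rbm5* had 0 and 12 counts of curated noncoding transcripts, at least 4.85-fold higher, beside 593 and 896 curated coding counts, but its predicted noncoding transcript had 36 and 51 counts.

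In the remaining genes with curated noncoding transcripts the classes were close or went the other way. *Hnrnpdl* had 170 and 449 counts of NR_152866 and 168 and 517 of the coding NM_016690, so that both classes were over 2-fold higher and the noncoding share was 50.3% (44.8 to 55.8) and 46.5% (43.3 to 49.7). *Hnrnpa1* had 83 and 100 counts of NR_104427 beside 383 and 1086 coding counts, and its noncoding share was 17.8% (14.4 to 21.6) and 8.43% (6.91 to 10.2). GENCODE lists the transcript matched to NR_104427, like those of *Srsf3*, *Srsf7* and *Hnrnpa2b1*, as a target of nonsense-mediated decay. The most abundant coding transcript of *Hnrnpa1*, NM_001039129, had 215 and 589 counts. *Srsf9* had 86 and 87 noncoding and 749 and 467 coding counts, with shares of 10.3% (8.32 to 12.6) and 15.7% (12.8 to 19.0), although GENCODE lists the transcript matched to its NR_036616 as protein-coding. *Hnrnpu* had 35 and 0 counts of NR_149827, at least 9.62-fold lower, beside 2711 and 5026 coding counts.

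Counting predicted transcripts with the curated ones gave 17 genes with both classes. The noncoding class exceeded the coding class by over 2-fold in 8 of 17, against 39.2% of the 1661 genes past the minimum. It lagged by over 2-fold in 2 of 17, against 27.2%. Of the genes ahead, *Hnrnpa3*, *Hnrnpk*, *Hnrnpll*, *Srsf7* and *Srsf11* reached the minimum for the noncoding class only with AAV-*Wee1-AS*. *Hnrnpd*, which lagged, reached it only with AAV-GFP, so these counts too are descriptive only. The noncoding share of these 17 genes was 6.79% with AAV-GFP and 22.9% with AAV-*Wee1-AS*, and 5.31% and 11.2% without *Hnrnpa2b1*, against 8.78% and 12.2% over all such genes. The directions of *Hnrnpu* and *Hnrnpdl* were turned by this choice. *Hnrnpdl* had noncoding shares of 31.7% (27.7 to 35.8) and 38.9% (36.2 to 41.6). *Rbm5* was no longer past 2-fold, with a difference of 0.14 in place of 2.06 and shares of 5.65% (3.99 to 7.74) and 6.34% (4.91 to 8.04). The predicted *Hnrnpu* transcript XR_003956223 had 11 and 659 counts, and the noncoding share of the gene became 1.67% (1.22 to 2.22) and 11.6% (10.8 to 12.5).

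**Figure D5:**
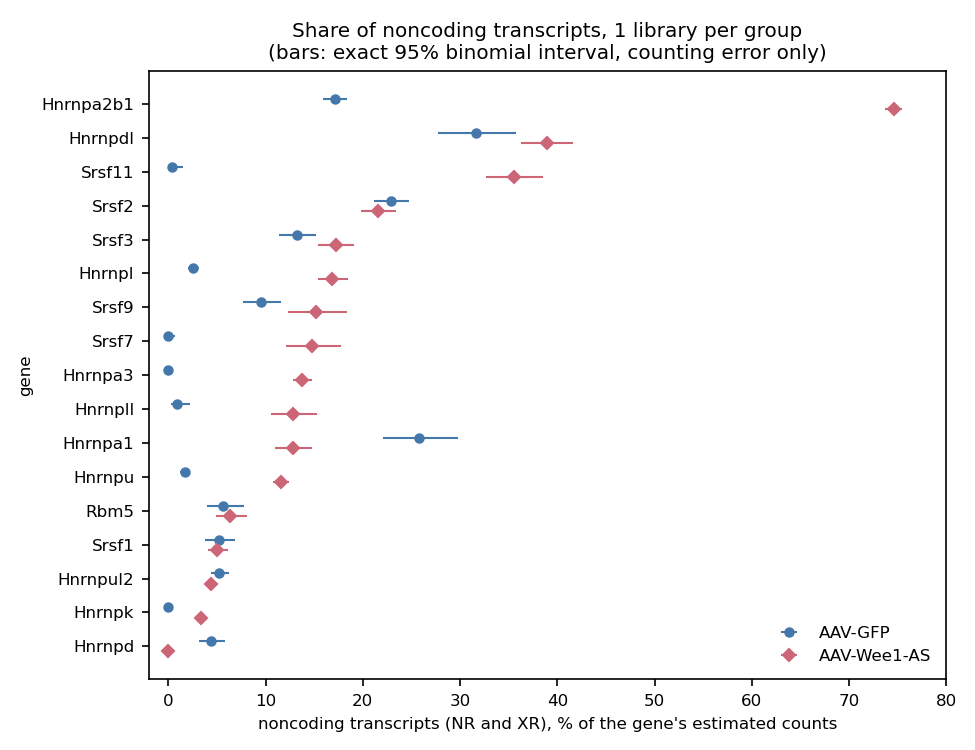
Share in percent of noncoding transcripts, curated and predicted, among the estimated counts of each of 17 genes (x axis) in the AAV-GFP library (circles) and the AAV-Wee1-AS library (diamonds), with exact 95% binomial intervals of counting error. Hnrnpa2b1 was at 17.1% and 74.6%, Srsf11 at 0.40% and 35.5%, and Hnrnpa1 at 25.8% and 12.8%.

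Among the genes with predicted noncoding transcripts, named here after their values were seen, *Srsf11* (chr3:158010473-158036667) stood beside *Hnrnpa2b1*. Its 4 XR transcripts had 2 counts in all with AAV-GFP and 380 with AAV-*Wee1-AS*, at least 154-fold higher, and their share was 0.40% (0.05 to 1.46) and 35.5% (32.7 to 38.5). Its main coding transcript in the AAV-GFP library, NM_001093752, had 274 and 39 counts (log2 ratio -2.48, -3.06 to -2.05), and its predicted coding transcripts 193 and 572. *Hnrnpa3* had 0 and 691 counts of XR_866271, at least 279-fold higher, beside 1581 and 4327 coding counts. *Hnrnpl* had 76 and 397 noncoding counts, with shares of 2.52% (1.99 to 3.15) and 16.9% (15.4 to 18.4), although the gene in all was level. *Hnrnpd* went the other way with 40 and 0 noncoding counts, at least 11-fold lower. In *Srsf2*, *Srsf1* and *Hnrnpul2* the share was near level, at 22.9% and 21.5%, 5.16% and 4.997%, and 5.25% and 4.38%.

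In some genes counts also lay on different coding transcripts in the 2 libraries. The genes named here are examples, and no tally over all members or all genes is given. The curated coding transcripts of *Srsf2* had 1216 and 626 counts and the predicted coding ones 453 and 966, although the gene in all had 2166 and 2029. In *Hnrnpc* the predicted coding transcripts had 1105 and 343 counts and the curated ones 2298 and 3230. *Tra2a* had 172 and 175 curated coding counts and 0 and 198 predicted coding ones, so its higher gene total with AAV-*Wee1-AS* lay in the predicted transcripts. *Srsf10* had 286 and 537 curated and 0 and 137 predicted counts, and *Rbm3* had 34 and 263 counts of NM_001166411 beside 413 and 337 of NM_001166410. Since reads are shared out between transcripts with common exons, a gene total is the firmer value in each of these genes.

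The other genes of the splicing pathway were taken from 6 lists by function. Of 89 genes 87 were kept, 23 were over 2-fold higher, 0 were over 2-fold lower and their median log2 ratio was 0.41. The share over 2-fold higher was 26.4%, near the 22.5% of all genes. With trends removed 5 were over 2-fold higher and 5 lower, against 7.38% and 8.53% of all genes. The counts of each list below are read against the same shares. Among the kinases that phosphorylate SR proteins, 4 of 8 were over 2-fold higher (median 0.98), or 1 of 8 with trends removed (median 0.39), with *Clk4* at 88 and 496 counts (2.74, 2.44 to 3.12) and *Clk3* at 1172 and 981 (0.02, -0.10 to 0.14). Among SR-related proteins 7 of 15 were over 2-fold higher (median 0.94), or 0 of 15 with trends removed (median 0.44). They ran from *Scaf1* at 2423 and 1305 counts (-0.61, -0.71 to -0.52) to *Srek1*, an SR-related splicing regulator, at 121 and 501 (2.31, 2.04 to 2.63).

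In the other 4 lists the share over 2-fold higher was near or below the 22.5% of all genes. Of 12 genes of nonsense-mediated decay 3 were over 2-fold higher (median 0.50), or 1 of 12 with trends removed (median 0.31), with *Upf3b*, which links decay to the exon junction complex, at 45 and 194 counts and *Smg5*, a decay factor that binds UPF1, at 2735 and 1346. Of 8 exon junction complex genes 1 was over 2-fold higher (median 0.09), or 1 of 8 with trends removed (median 0.11), which was *Pnn* at 140 and 578 counts, and *Rnps1* was the lowest at 1468 and 976. Of 16 genes for U1 and U2 recognition 1 was over 2-fold higher (median -0.39), which was *Sf3b1*, the branch-site factor, at 1650 and 3982 counts, and *Sf3b5* was the lowest at 1514 and 705. With trends removed 0 of the 16 were over 2-fold higher and 3 lower, with a median of 0.01. Of 28 other regulators 7 were over 2-fold higher (median 0.61). With trends removed the median was -0.22, with 2 over 2-fold higher and 2 lower. The genes ran from *Pcbp1* at 11228 and 5336 counts to *Ptbp3*, a polypyrimidine tract-binding protein, at 336 and 1656.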

How the data were processed

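Livers of 1 library per group (AAV-GFP and AAV-*Wee1-AS*) were sequenced by the authors (TruSeq Stranded mRNA, paired ends of 100 bases). The submitters' processing notes name Trimmomatic 0.38, HISAT2 2.1.0, SAMtools 1.9, StringTie 2.1.3b and the build mm10. The authors deposited an estimated count, an FPKM value and a TPM value per RefSeq transcript and library. The deposited estimated counts equalled FPKM times length times a constant, rounded up, within 1 for 98.2% and 98.5% of transcripts above 0, so they are shares between overlapping transcripts. FPKM and TPM values deposited by the authors are per length.

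Counts were summed per symbol and scaled by TMM factors (edgeR 4.0.16 in R 4.3.3) of 1.03 and 0.975 on totals of 55466182 and 48079335. Log2 ratios took a prior count of 2, and genes of at least 10 counts in 1 library were kept. Genes past 2-fold were counted, beside all genes. Ratios had exact (Clopper-Pearson) 95% intervals, and folds against a library of at most 3 counts were lower bounds on the estimated counts only. Classes were compared by the difference of their log2 ratios, past 1 in either direction. GC content and length came from the longest GENCODE M21 transcript of a symbol, and trends were removed by lowess fits (span 0.3, 5 cycles). Members and lists were chosen with earlier results of these data known. Genes were named by a minimum of 100 counts in a library, and from the lists the highest and lowest ratio. The steps were tested on simulated data. Alternatives used DESeq2 1.42.0 size factors, library totals, the upper quartile, other filters, a prior count of 0.5, TPM and FPKM with a pseudocount of 1, and predicted transcripts. Python 3.11.15 with numpy 2.4.6, pandas 2.3.3, scipy 1.17.1, statsmodels 0.14.6 and matplotlib 3.10.9 was used.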

Additional observations from a re-analysis of the deposited data

How the results depend on the processing

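No paired analysis was possible because each group has 1 library, and for the same reason no library could be left out and the difference has no replicate check. Counts of splicing factors over 2-fold higher ran from 12 to 19 over the scalings, filters, prior counts, units and the removal of the length trend alone, with 0 over 2-fold lower in each. The share of all genes over 2-fold higher was 6.49% with FPKM (12 splicing factors), 10.1% with TPM (13), 17.0% with the length trend removed (14) and 23.7% with no count filter (19). The upper quartile shifted the median of all genes to -0.13, and 15 splicing factors and 19.98% of all genes were then over 2-fold higher. With trends of GC content and length removed, 1 was over 2-fold higher (median 0.28), and 2 (median 0.30) where the protein-coding transcript gave GC content, an alternative added after the data were seen. Of the 36 genes, 14 turned from above to below 0 in the first fit and 11 in the second, and 3 and 4 from below to above 0. Among genes that were over 2-fold higher, those that turned below 0 were *Srsf1* (-0.17 and -0.28), *Hnrnpr* (-0.90 and -0.95) and *Hnrnpu* (-0.47 and -0.57) in both fits, and *Hnrnpll* (-0.33) in the first. For *Srsf1*, *Hnrnpr* and *Hnrnpu* both fits used the same GC content and length, so the fits are not separate checks of these genes. Of the 87 other splicing genes, 15 were over 2-fold higher with FPKM, against 6.49% of all genes. With the length trend removed 4 of the 87 were over 2-fold lower, against 11.7% of all genes. With the GC trends removed 5 of the 87 were over 2-fold higher in either fit, against 7.38% and 5.75% of all genes. In these fits 5 and 7 were over 2-fold lower, against 8.53% and 7.92%.

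With predicted transcripts 8 of 17 genes had the noncoding class over 2-fold ahead, against 39.2% of all such genes. The difference of *Hnrnpu* turned to 2.89, and the noncoding shares were 6.79% and 22.9%. These shares were 5.31% and 11.2% without *Hnrnpa2b1*, also added after the data were seen. The shares of curated transcripts were 5.08% and 9.16% from TPM, and 4.88% and 10.7% with at least 50 counts in each class. The AAV-*Wee1-AS* share was 8.56% once the length trend was removed. From TPM, 4 of 10 genes were over 2-fold ahead, against 29.1% of all such genes, and 2 of 10 lagged, against 24.4%. With at least 50 counts in each class 4 of 8 were over 2-fold ahead, against 30.1%, and 1 of 8 lagged, against 22.6%. Counts of a few reads limited the classes of *Rbm5* and *Hnrnpll* with AAV-GFP. The causes of these differences between settings were not tested.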
